A study of Homo sapiens with 20 samples.

Results

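Expression of 8 genes that set the sterol balance of a cell was followed in hTCEpi, 1 telomerase-immortalized line derived from the epithelium of the human cornea. The genes were SREBF1, SREBF2, SCAP, INSIG1, INSIG2, MYLIP, ABCA1 and ABCG1. They were chosen by name, for their known roles, but with earlier results of these data known. All 8 of them were among the 22938 genes tested out of 60671 gene identifiers. Cells were kept in keratinocyte growth medium with added calcium chloride and antibiotics and were given recombinant human SPARC, a secreted glycoprotein of the extracellular matrix, for 24 hours. The control group had no SPARC, and 3 groups had 0.05, 0.5 or 5 µg/ml. They are written below as SPARC 0.05, SPARC 0.5 and SPARC 5, and every group, control included, had 5 samples. The groups share the same line, medium and duration, and the labels leave unsaid if samples of a group were separate cultures, so p-values measure the spread between these samples, which may be technical.

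Cholesterol synthesis and uptake are controlled by the sterol regulatory element-binding proteins, SREBPs, which are made as membrane-bound precursors. When sterols are scarce, SCAP escorts the precursors from the endoplasmic reticulum to the Golgi, where proteases release their active part. When sterols are plentiful, the INSIG proteins hold SCAP back. INSIG1 is itself a classical SREBP target. A second arm, the liver X receptors (LXRs), senses oxysterols. The genes it raises include the exporters ABCA1 and ABCG1, and also MYLIP, a ubiquitin ligase that removes lipoprotein receptors from the cell surface. RNA levels report neither the cleavage of the SREBPs nor the amount of any protein.

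The start regions of the genes were read for elements through which these arms are known to act. RefSeq windows on GRCh38.p14, from 250 bases before to 50 after the start site, were found for 7 of the 8 genes: SREBF1, SREBF2, SCAP, INSIG1, INSIG2, MYLIP and ABCA1. Each was searched on both strands for the sterol element core TCACNCCAC, the E-box CACGTG, the NF-Y box CCAAT, the Sp1 box GGGCGG and an LXR element, 2 copies of AGGTCA with 4 letters between. Among the windows of the 7 genes, only that of SREBF2 held the sterol element core, at -133 to -125 from its start. Of 34943 RefSeq windows, 1.12% hold it. An E-box, a sequence that SREBPs can also bind, is found in 7.23% of windows and lay in those of INSIG1, SCAP and ABCA1. The exact LXR element was in none of the 7 and in 0.02% of all windows. A relaxed form of it, chosen after the ABCA1 sequence was seen and present in 0.143% of windows, matched that of ABCA1 at -69 to -54. The windows of SREBF2 (chr22:41832855-41833154, plus strand), INSIG1 (chr7:155297628-155297927, plus strand) and ABCA1 (chr9:104928106-104928405, minus strand) are shown as examples of an element of one of these arms in a gene described in detail below, and that of SCAP, which also holds an E-box, is not shown. Capitals mark the sterol core and an NF-Y box, found in 34.6% of windows, in SREBF2, an NF-Y box and the E-box in INSIG1, and the E-box and the relaxed LXR element in ABCA1. A match is a description of the letters and not a measured binding site. Start sites outside these windows were not read. For SREBF1 the window lay at the upstream end of the gene (chr17:17836937-17837236, minus strand).
SREBF2: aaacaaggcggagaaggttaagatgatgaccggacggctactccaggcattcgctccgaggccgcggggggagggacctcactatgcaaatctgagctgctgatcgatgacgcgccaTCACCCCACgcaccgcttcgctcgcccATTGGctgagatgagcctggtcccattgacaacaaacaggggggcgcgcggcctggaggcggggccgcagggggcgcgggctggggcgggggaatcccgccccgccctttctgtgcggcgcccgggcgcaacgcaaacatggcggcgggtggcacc
INSIG1: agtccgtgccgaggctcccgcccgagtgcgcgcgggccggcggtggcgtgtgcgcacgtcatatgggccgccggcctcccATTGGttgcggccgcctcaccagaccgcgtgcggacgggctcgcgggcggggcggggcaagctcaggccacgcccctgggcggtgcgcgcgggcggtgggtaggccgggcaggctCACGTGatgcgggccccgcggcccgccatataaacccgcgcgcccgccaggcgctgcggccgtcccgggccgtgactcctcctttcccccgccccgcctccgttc
ABCA1: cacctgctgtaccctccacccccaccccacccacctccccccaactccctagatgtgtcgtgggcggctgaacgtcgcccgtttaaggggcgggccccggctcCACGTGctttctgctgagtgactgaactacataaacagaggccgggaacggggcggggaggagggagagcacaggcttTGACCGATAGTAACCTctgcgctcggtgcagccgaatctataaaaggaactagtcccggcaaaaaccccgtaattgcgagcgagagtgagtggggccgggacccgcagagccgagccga

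Total counts per sample were between 31955358 and 50112286, and the lowest member count in any sample was 220, of ABCA1. Keratin 5, a basal epithelial keratin, stood at 11320 counts-per-million (CPM) in control, whereas the corneal differentiation keratin KRT12 had 0 to 4 counts, KRT3 1.46 CPM and PAX6 7.66 CPM. The summed levels of the marker lists for stroma and fibroblasts, for immune cells, and for endothelium and melanocytes were at most 8.02, 1.87 and 4.85 CPM in any sample, and the stromal marker KERA was at 0 in all samples. At SPARC 5, 4 of 8 tested epithelial markers were called, where 11.6% of all genes were. KRT14 and TP63 were higher and KRT15 and EPCAM lower, and the part of these markers in the results below was not tested. In such bulk RNA, fewer cells of a kind and less RNA per cell cannot be told apart. Control replicates 2, 3 and 4 stood apart in GC content: the correlation of a library's expression with GC content across genes was 0.164, 0.27 and 0.151 in them and between -0.127 and 0.0993 in the other 17 samples. SPARC 5 replicates 2 and 5 lay at opposite ends of the second principal component.

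Levels between the genes were compared in CPM per kilobase of exon. In control SREBF1 was highest at 55.6 ± 3.54 (SD, n = 5), followed by SREBF2 at 41.3 ± 0.879, INSIG1 at 38.8 ± 1.17 and SCAP at 29.7 ± 0.39. The 4 other genes were much lower: MYLIP at 4.95 ± 0.634, ABCG1 at 3.36 ± 0.281, INSIG2 at 2.58 ± 0.205 and ABCA1 at 0.831 ± 0.168. In control no gene overlapped its neighbour in this order. With SPARC the order in these units changed at 2 places. INSIG1 passed SREBF2, with overlapping samples at SPARC 0.05 and SPARC 0.5 and separate ones at SPARC 5, at 43.7 ± 1.87 against 39.7 ± 0.92. ABCG1 and INSIG2 overlapped in all 3 SPARC groups, and INSIG2 had the higher mean only at SPARC 0.05, at 2.78 ± 0.31 against 2.68 ± 0.171. Both changes of order rest on the length used, that of all annotated exons, such as 3650 bases for INSIG1 and 7557 for SREBF2. Which of these exons the cells use was not tested. In CPM without length, INSIG1 stayed below SREBF2 and INSIG2 below ABCG1 in every group.

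**Figure D1:**
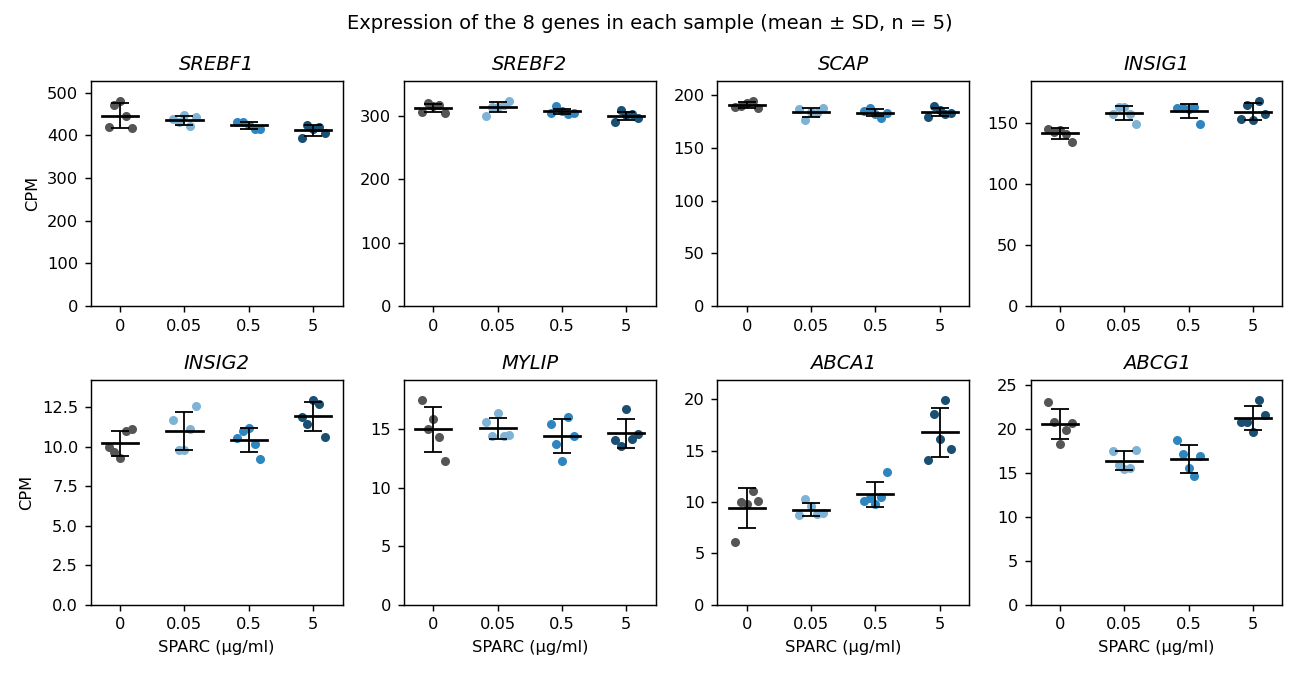
Expression of the 8 genes in CPM (vertical axes, from 0) against the SPARC dose in µg/ml (horizontal axes), with a point for each sample and the mean ± SD of the 5 samples of a group. INSIG1 was higher in every SPARC sample than in every control sample, ABCA1 was high at 5 µg/ml, and ABCG1 was low at 0.05 and 0.5 µg/ml.

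Across the 4 groups, 4 of the 8 genes differed (adjusted p under 0.05, edgeR's quasi-likelihood test with Benjamini-Hochberg adjustment over all 22938 genes, as for every adjusted p here unless another tool is named), where 11% of all genes did. These were SREBF1, INSIG1, ABCA1 and ABCG1, and each followed the dose differently. At SPARC 5, 2 of the 8 genes rose (INSIG1 and ABCA1) and 1 fell (SREBF1), where 11.6% of all genes were called, 7.04% higher and 4.58% lower. At SPARC 0.5, INSIG1 rose and ABCG1 fell, where 2.25% of all genes were called, 1.36% higher and 0.894% lower. At SPARC 0.05 the same 2 genes were called in the same directions, where 0.266% of all genes were called, 0.187% higher and 0.0785% lower. These 3 comparisons share the control samples. The median log2 fold change of the 8 genes was 0.01, -0.04 and -0.01 at SPARC 5, SPARC 0.5 and SPARC 0.05, and that of all genes was -0.01, 0.00 and 0.00.

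**Figure D2:**
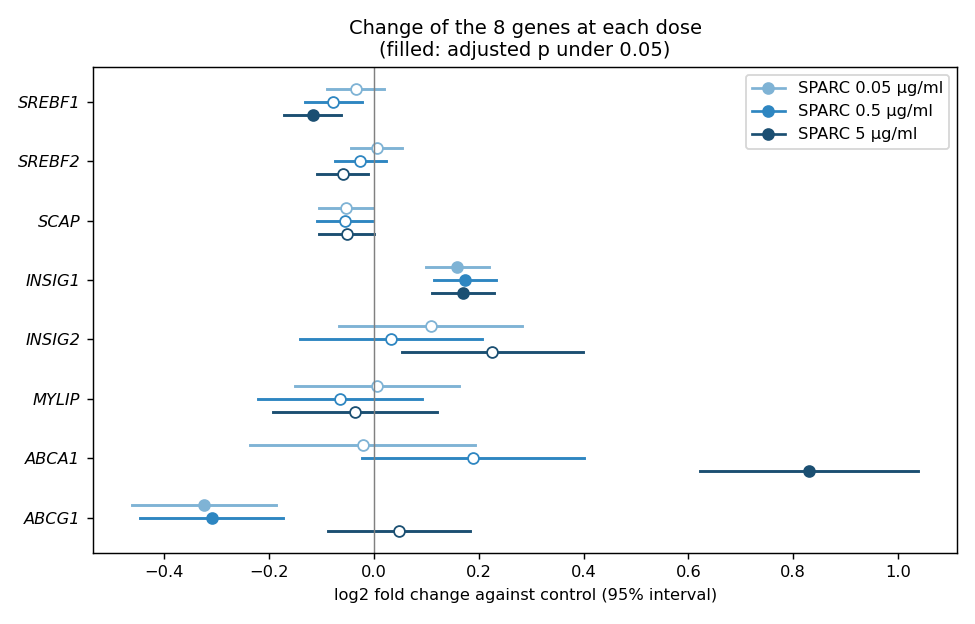
Log2 fold change of each gene against control (horizontal axis) at the 3 SPARC doses, with 95% intervals from the edgeR fit. Filled points passed the test at an adjusted p under 0.05: INSIG1 at all 3 doses, ABCG1 at 0.05 and 0.5 µg/ml, and ABCA1 and SREBF1 at 5 µg/ml.

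SREBF1 encodes SREBP-1, of which one isoform chiefly drives fatty acid synthesis, and lies at chr17:17810399-17837002 on the minus strand (GENCODE 29, GRCh38, as for the other genes below). It measured 420.0, 470.2, 479.5, 446.6 and 416.8 CPM in control replicates 1 to 5, and 393.1, 425.0, 416.1, 419.1 and 406.0 CPM in the 5 SPARC 5 samples. Control replicates 2, 3 and 4 were the high ones, and the groups overlapped, since control replicates 1 and 5 lay within the SPARC 5 range. At SPARC 0.05 the 5 samples ran from 421.0 to 446.9 CPM (median 437.5), and at SPARC 0.5 from 414.1 to 430.9 CPM (median 424.5). SREBF1 fell at SPARC 5 by 0.12 ± 0.03 on the log2 scale (SE, adjusted p = 0.001324), a percent change of -7.8%. Its trend per dose step, from control through the 3 doses, was -0.04 ± 0.01 (adjusted p = 0.0007855).

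The 3 control samples with high SREBF1 were those that stood apart in GC content. The longest SREBF1 transcript has a GC content of 62.8%, the highest of the 8 genes, with SCAP next to it at 62.3%. SCAP measured 190.0, 192.6 and 194.0 CPM in control replicates 2, 3 and 4, and 189.2 and 187.8 CPM in replicates 1 and 5. Leaving out the 3 controls highest in SREBF1 had to shrink its SPARC 5 difference, so this cannot decide if the SREBF1 call depends on GC content. Of 21 alternatives, 20 kept the call. Without these 3 controls, which leaves 2, the SPARC 5 difference was -0.03 (adjusted p = 0.7654) and was not called. With a correction for GC content and length it was -0.09 (adjusted p = 0.003777). Against SPARC 0.05, whose libraries do not include the ones that stood apart, SREBF1 was lower at SPARC 5 by a log2 difference of -0.08 ± 0.03 (adjusted p = 0.04642).

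**Figure D3:**
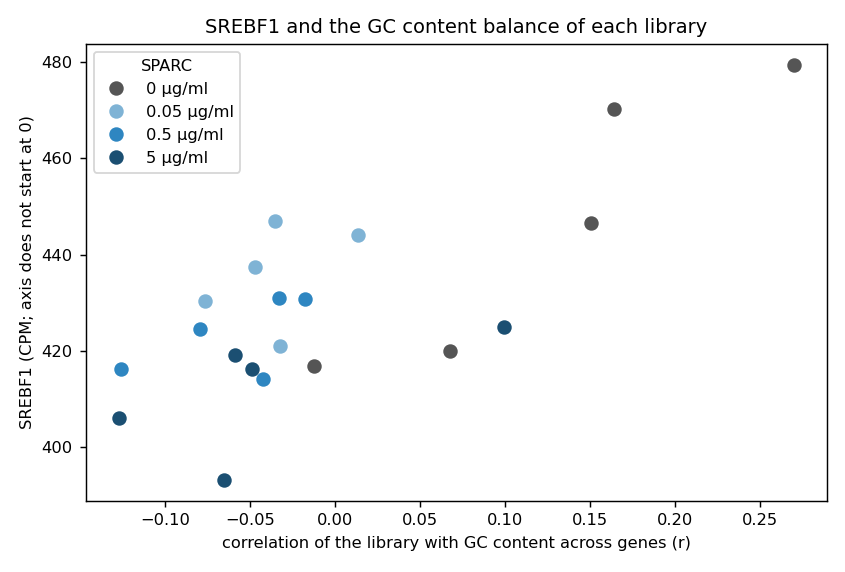
SREBF1 in CPM (vertical axis, not starting at 0) against the correlation of each library with GC content across genes (horizontal axis), with a point for each of the 20 samples, coloured by dose. The 3 samples at the right are control replicates 2, 3 and 4, which also hold SREBF1 levels of 446.6 to 479.5 CPM.

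SREBF2 encodes SREBP-2, the main driver of cholesterol synthesis (chr22:41833079-41907308, plus strand). Control samples lay between 304.3 and 319.4 CPM (median 314.8) and SPARC 5 samples between 290.1 and 308.6 CPM (median 300.8), so the groups overlapped. The log2 difference at SPARC 5 was -0.06 ± 0.02, with a 95% interval of -0.11 to -0.01, and did not pass the test (adjusted p = 0.1054). In the authors' deposited table it was -0.07 with an adjusted p of 0.02462, the one call among 24 for these genes that lay on the other side of the threshold. It also passed with DESeq2 (adjusted p = 0.04334), with a filter at a mean of 1 CPM (adjusted p = 0.03377), with library sizes as the only scaling (-0.11, adjusted p = 0.0005519) and without SPARC 5 replicate 2 (adjusted p = 0.04331). The SREBF2 means were 313 ± 8.16 CPM at SPARC 0.05 and 307 ± 4.65 CPM at SPARC 0.5, neither called against control. Within a sample the log2 ratio of SREBF1 to SREBF2 was 0.51 ± 0.07 (SD, n = 5) in control and 0.46 ± 0.01 at SPARC 5, with overlapping samples.

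SREBF1 and SREBF2 each hold a microRNA of the miR-33 family in an intron, and this family is known to repress ABCA1. The mature forms (RefSeq, GRCh38.p14) are shown because they share 1 seed, bases 2 to 8, in capitals. They lie at chr22:41900949-41900969 on the plus strand, within SREBF2, and at chr17:17813897-17813916 on the minus strand, within SREBF1.
miR-33a-5p: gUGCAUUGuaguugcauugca
miR-33b-5p: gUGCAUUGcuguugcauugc

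The genes of these microRNAs had 0 to 12 counts (MIR33A, not tested) and 0 to 21 counts (MIR33B, not called at any dose) per sample. The libraries were made from fragmented long RNA and do not measure mature microRNAs. Exons of SREBF1 share 556 bases (6.92% of its exon length) with RAI1 on the other strand, and exons of SREBF2 share 280 bases (3.71%) with the antisense gene SREBF2-AS1. Whether strand was used in counting is not given, and reads of either gene in those bases may be mixed. SREBF2-AS1 itself was at 9.77 ± 0.502 CPM in control and was not called at SPARC 5 (log2 difference -0.19, adjusted p = 0.2135).

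SCAP, the sterol-sensing escort of the SREBPs (chr3:47413694-47477126, minus strand), varied least. Control samples lay between 187.8 and 194.0 CPM, and the samples of SPARC 0.05, SPARC 0.5 and SPARC 5 between 176.9 and 188.0, 178.7 and 188.0, and 178.9 and 189.8 CPM. The SPARC samples lay mostly below control, with overlap at each dose. The log2 difference was -0.05 at SPARC 0.05, -0.06 at SPARC 0.5 and -0.05 at SPARC 5, each with an SE of 0.03, and none passed the test (adjusted p = 0.529, 0.3058 and 0.2227). With library sizes as the only scaling, the SPARC 5 difference was -0.10 and passed (adjusted p = 0.004074).

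INSIG1, which retains SCAP in the endoplasmic reticulum and lies at chr7:155297776-155310235 on the plus strand, was the one gene of the 8 called at every dose. It measured 145.1, 142.9, 144.5, 141.3 and 134.5 CPM in control. At SPARC 0.05 it measured 157.8, 163.3, 163.4, 157.6 and 149.1 CPM. Every SPARC 0.05 sample was above every control sample. At SPARC 0.5 it measured 162.1, 162.5, 161.5, 163.4 and 149.4 CPM, and at SPARC 5 it measured 153.8, 165.2, 152.5, 167.8 and 157.8 CPM. Both of these groups again lay wholly above control, while the 3 SPARC groups overlapped each other.

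INSIG1 rose by 0.16 ± 0.03 on the log2 scale at SPARC 0.05 (SE, adjusted p = 0.002704), by 0.17 ± 0.03 at SPARC 0.5 (adjusted p = 8.041e-05) and by 0.17 ± 0.03 at SPARC 5 (adjusted p = 8.651e-06). These are rises of 11.7%, 12.8% and 12.5%. The 3 doses, which span a wide range, gave like values: SPARC 5 differed from SPARC 0.05 by a log2 value of 0.01 with a 95% interval of -0.05 to 0.07 (adjusted p = 0.9168), and from SPARC 0.5 by 0.00 with an interval of -0.06 to 0.06 (adjusted p = 0.9781). The rise was called at every dose under all alternatives tried, including those without the controls that stood apart. The 3 rises share the control samples, so a flat response to SPARC and an offset of the control group cannot be told apart.

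INSIG2, a second protein that retains SCAP and is not a classical SREBP target (chr2:118088452-118110997, plus strand), was far lower in level. Control samples lay between 9.26 and 11.1 CPM (median 10.0) and SPARC 5 samples between 10.6 and 12.9 CPM (median 11.9), with overlap. Its log2 difference at SPARC 5 was 0.23 ± 0.09, with a 95% interval of 0.05 to 0.40 that includes the size of the INSIG1 rise, and it did not pass the test (adjusted p = 0.08068). Without SPARC 5 replicates 2 and 5 it passed (0.29, adjusted p = 0.04305). Counts of INSIG1 were 14 ± 1.44 times those of INSIG2 in control and 13.5 ± 1.23 times at SPARC 5.

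MYLIP, the LXR-induced ubiquitin ligase also known as IDOL (chr6:16129125-16148248, plus strand), was not called at any dose. Its mean was 15 ± 1.92 CPM in control (SD, n = 5), 15.1 ± 0.903 at SPARC 0.05, 14.4 ± 1.46 at SPARC 0.5 and 14.7 ± 1.24 at SPARC 5, and all groups overlapped. The log2 difference at SPARC 5 was -0.04 with a 95% interval of -0.19 to 0.12 (adjusted p = 0.8527). That interval does not reach the ABCA1 rise at the same dose.

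ABCA1, which loads cholesterol and phospholipid onto lipid-poor apolipoprotein A-I, lies at chr9:104781002-104928237 on the minus strand and changed most in size. It measured 6.13, 10.03, 9.822, 11.11 and 10.05 CPM in control. At SPARC 5 it measured 14.12, 18.52, 16.13, 19.91 and 15.17 CPM. Every SPARC 5 sample was above every other sample of the series, and control replicate 1 was low. At SPARC 0.05 it measured 8.755, 10.28, 9.604, 8.805 and 8.904 CPM, and at SPARC 0.5 it measured 10.1, 10.43, 9.807, 10.44 and 12.89 CPM. These 2 groups overlapped control.

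ABCA1 rose 1.78-fold at SPARC 5, which is 0.83 ± 0.10 on the log2 scale (SE, adjusted p = 1.544e-08). At SPARC 0.5 the log2 difference from control was 0.19 ± 0.11 (adjusted p = 0.4439), and it was 0.07 without control replicate 1 and 0.11 without SPARC 0.5 replicate 5. At SPARC 0.05 the difference was -0.02 ± 0.11 (adjusted p = 0.9772). The step between the upper doses was itself called, with SPARC 5 higher than SPARC 0.5 by 0.64 ± 0.10 (adjusted p = 7.881e-06). Under the alternatives tried, the SPARC 5 rise stayed between 0.71 and 1.05 and was called in all of them.

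ABCG1, which exports cholesterol to high-density lipoprotein particles, lies at chr21:42199689-42297244 on the plus strand and followed another course. It measured 23.07, 20.84, 18.31, 19.95 and 20.7 CPM in control. At SPARC 0.05 it measured 17.51, 15.96, 15.42, 15.63 and 17.59 CPM, all below every control sample. At SPARC 0.5 it measured 18.77, 17.19, 15.6, 14.67 and 16.94 CPM, where only replicate 1 lay above the lowest control. At SPARC 5 it measured 20.81, 20.86, 19.74, 23.32 and 21.64 CPM, back within the control range or just above it and clear of both lower doses.

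ABCG1 fell by 0.32 ± 0.07 on the log2 scale at SPARC 0.05 (SE, adjusted p = 0.01139) and by 0.31 ± 0.07 at SPARC 0.5 (adjusted p = 0.00377), percent changes of -20.1% and -19.3%. At SPARC 5 the log2 difference from control was 0.05 ± 0.07, with a 95% interval of -0.09 to 0.18 (adjusted p = 0.7569). SPARC 5 was higher than SPARC 0.5 by 0.36 ± 0.07 (adjusted p = 8.884e-05) and than SPARC 0.05 by 0.37 ± 0.07 (adjusted p = 2.74e-05) in contrasts that set no control sample against a dose. The fall at SPARC 0.05 was not called without control replicate 1 (-0.28, adjusted p = 0.0696), without SPARC 0.05 replicate 2 (-0.31, adjusted p = 0.0585) or replicate 3 (-0.30, adjusted p = 0.0631), or with the GC and length correction (-0.30, adjusted p = 0.0507), and DESeq2 gave no adjusted p for it. The fall at SPARC 0.5 was called under all alternatives tried.

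Between SPARC 5 and SPARC 0.5, 2 of the 8 genes differed, ABCA1 and ABCG1, both higher at SPARC 5, where 4.8% of all genes were called. Between SPARC 5 and SPARC 0.05, 3 differed, those 2 and SREBF1, where 8.28% of all genes were called. Between SPARC 0.5 and SPARC 0.05, edgeR called 0 of the 8, with 1 (ABCA1) at an unadjusted p under 0.05, where 0.179% of all genes were called. No other tool was run on that pair. The trend per dose step was called for 3 of the 8, SREBF1, INSIG1 and ABCA1, where 11.1% of all genes were called. A called trend need not be a graded one. INSIG1 was not called between any of the doses. ABCA1 was called against control only at SPARC 5, which was also called against both lower doses. SREBF1 too was called against control only at SPARC 5. Its log2 differences from control were -0.035, -0.078 and -0.117 in rising order of dose, so its missing calls do not show a step. ABCG1, lower at the lower doses alone, had a trend of 0.02 ± 0.04 (adjusted p = 0.87).

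The balance of the exporters was read as a ratio. Within a sample the log2 ratio of ABCA1 to ABCG1 was -1.15 ± 0.43 in control (SD, n = 5), -0.82 ± 0.17 at SPARC 0.05, -0.63 ± 0.20 at SPARC 0.5 and -0.35 ± 0.17 at SPARC 5. Counts of ABCA1 were 0.465 ± 0.116 times those of ABCG1 in control and 0.788 ± 0.093 times at SPARC 5, without correction for length. Control and SPARC 5 samples did not overlap, while both lower doses overlapped control. Control replicate 1, where ABCA1 was low, had a log2 ratio of -1.90, and without it the control mean was -0.96 ± 0.10 (SD, n = 4). The shift from control was then 0.14 at SPARC 0.05, 0.33 at SPARC 0.5 and 0.61 at SPARC 5. At the lower doses the ratio held a lower ABCG1, and at SPARC 5 it held a higher ABCA1.

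**Figure D4:**
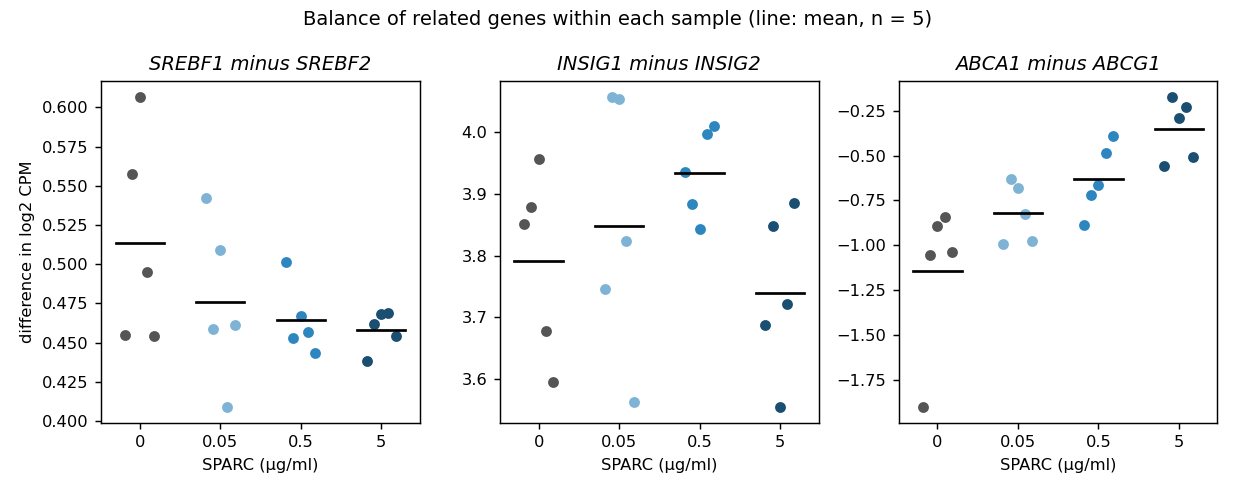
Difference in log2 CPM between related genes within each sample (vertical axes, not starting at 0) against the SPARC dose in µg/ml, with a point for each sample and a line at the mean of 5. For ABCA1 minus ABCG1 the mean went from -1.15 in control to -0.35 at 5 µg/ml, while the other pairs overlapped across all doses.

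The pathway around these genes was read from 5 lists, also chosen with earlier results of these data known. The longest, with 20 genes, is that of sterol synthesis, whose members are classical SREBP targets. Of these, 12 rose and 1 fell at SPARC 5, 10 rose at SPARC 0.5 and 3 rose at SPARC 0.05, where 11.6%, 2.25% and 0.266% of all genes were called. The medians of the list were 0.09, 0.09 and 0.06 on the log2 scale, against -0.01, 0.00 and 0.00 for all genes. HMGCS1, which makes the HMG-CoA used by the pathway, was at 188 ± 6.06 CPM in control (SD, n = 5). It rose by 0.26 at SPARC 0.05 (adjusted p = 6.171e-10), by 0.33 at SPARC 0.5 (adjusted p = 4.544e-15) and by 0.23 at SPARC 5 (adjusted p = 5.221e-10). Like INSIG1 it was already up at the lowest dose, but it was lower at SPARC 5 than at SPARC 0.5 (log2 difference -0.10, adjusted p = 0.01606).

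MSMO1, a sterol demethylase, rose by 0.16, 0.21 and 0.28 at the 3 doses in rising order. SQLE, the squalene epoxidase, rose by 0.09 at SPARC 0.5 and by 0.18 at SPARC 5, and was higher at SPARC 5 than at SPARC 0.5 (log2 difference 0.09, adjusted p = 0.01336). The single fall at SPARC 5 was that of TM7SF2, a sterol reductase named after its values were seen, from 20.5 ± 2.96 to 15.5 ± 1.11 CPM (log2 fold change -0.40, adjusted p = 1.056e-05). The SPARC 0.05 rise of MSMO1 was not called with the GC and length correction or without control replicates 2, 3 and 4, and the SPARC 0.5 rise of SQLE was lost in 7 of 20 alternatives. The SPARC 0.5 count of the list was 5 with library sizes as the only scaling and 6 without control replicates 2, 3 and 4, without SPARC 0.5 replicate 1 or without the filter on low counts.

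Fatty acid synthesis, the arm tied to SREBP-1, had 12 genes tested, of which 4 rose at SPARC 5, 2 at SPARC 0.5 and 1 at SPARC 0.05, with none lower, where 11.6%, 2.25% and 0.266% of all genes were called in either direction. SCD, the stearoyl-CoA desaturase, was at 3091 ± 104 CPM in control and rose by 0.15 on the log2 scale at each of the 3 doses (adjusted p = 4.457e-08, 8.018e-09 and 4.54e-10 in rising order of dose). This flat course is close in form to that of INSIG1, and its 3 rises likewise share the control samples. FADS2, a fatty acid desaturase, was called only at SPARC 5 among the 3 doses, by 0.28 (adjusted p = 7.918e-10), and was higher there than at SPARC 0.5 (0.23, adjusted p = 4.195e-07). The elongases ELOVL5 (0.13) and ELOVL6 (0.10) also rose at SPARC 5, and ELOVL6 at SPARC 0.5 (0.11). The ELOVL6 calls were lost in 11 of 21 alternatives at SPARC 5 and in 12 of 20 at SPARC 0.5. Without control replicates 2, 3 and 4, the SPARC 5 count of the list was 2, and ELOVL5 was not called. The counts at the lower doses were less settled, from 1 to 4 at each over the alternatives. At SPARC 0.5 it was 1 without control replicate 1 or 3 and without SPARC 0.5 replicate 1, 2, 4 or 5, and at SPARC 0.05 it was 2 without SPARC 0.05 replicate 4.

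Sterol uptake, transport and storage had 14 of 16 genes tested, of which 6 rose and 2 fell at SPARC 5, 1 rose at SPARC 0.5 and 0 were called at SPARC 0.05, where 11.6%, 2.25% and 0.266% of all genes were called. NPC2, which hands cholesterol out of the lysosome, went from 62.5 ± 4.42 to 80.9 ± 2.96 CPM at SPARC 5. That is a log2 rise of 0.37 ± 0.04 (adjusted p = 7.127e-13), beside 0.02 at SPARC 0.5 (adjusted p = 0.8914), and the step between these doses was called (0.35, adjusted p = 1.411e-11), as for ABCA1. CAV1, the caveolar coat protein, rose by 0.09 at SPARC 0.5 and by 0.17 at SPARC 5, the former not called with library sizes as the only scaling or without control replicates 2, 3 and 4. SCARB1, the receptor for high-density lipoprotein, fell at SPARC 5 by 0.20 on the log2 scale (adjusted p = 6.09e-08). The other fall was LRP8, an apolipoprotein receptor named after its values were seen (log2 fold change -0.14, adjusted p = 0.0002643). At SPARC 0.05, 2 of the 14 had an unadjusted p under 0.05, and no gene was called by DESeq2 or limma-voom.

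In SREBP processing and turnover, 1 of 11 genes was called at SPARC 5, a share near the 11.6% of all genes called, and between 0 and 2 were called under the alternatives. No gene of that list was called at SPARC 0.5 or SPARC 0.05, also by DESeq2 and limma-voom, with 1 and 0 at an unadjusted p under 0.05. Among 11 genes of the LXRs, their partners and further targets, 1 rose at SPARC 5 and 1 fell at SPARC 0.5, where 11.6% and 2.25% of all genes were called. The fall was that of RXRA, the retinoid partner of the LXRs (log2 fold change -0.11, adjusted p = 0.01224). The call of RXRA was lost with the GC and length correction, without control replicate 2, without SPARC 0.5 replicate 3 and without control replicates 2, 3 and 4. The LXRs themselves, NR1H2 and NR1H3, were at 38.5 ± 1.56 and 13.5 ± 1.15 CPM in control and were not called against control at any dose. NR1H2 did differ among the 4 groups (adjusted p = 0.01414), with 35.13 to 37.01 CPM at SPARC 0.05 and 37.97 to 44.35 CPM at SPARC 5, which do not overlap, while NR1H3 did not pass that test (adjusted p = 0.5338). At SPARC 0.05 edgeR, DESeq2 and limma-voom called 0 of the 11, with 2 at an unadjusted p under 0.05.

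**Figure D5:**
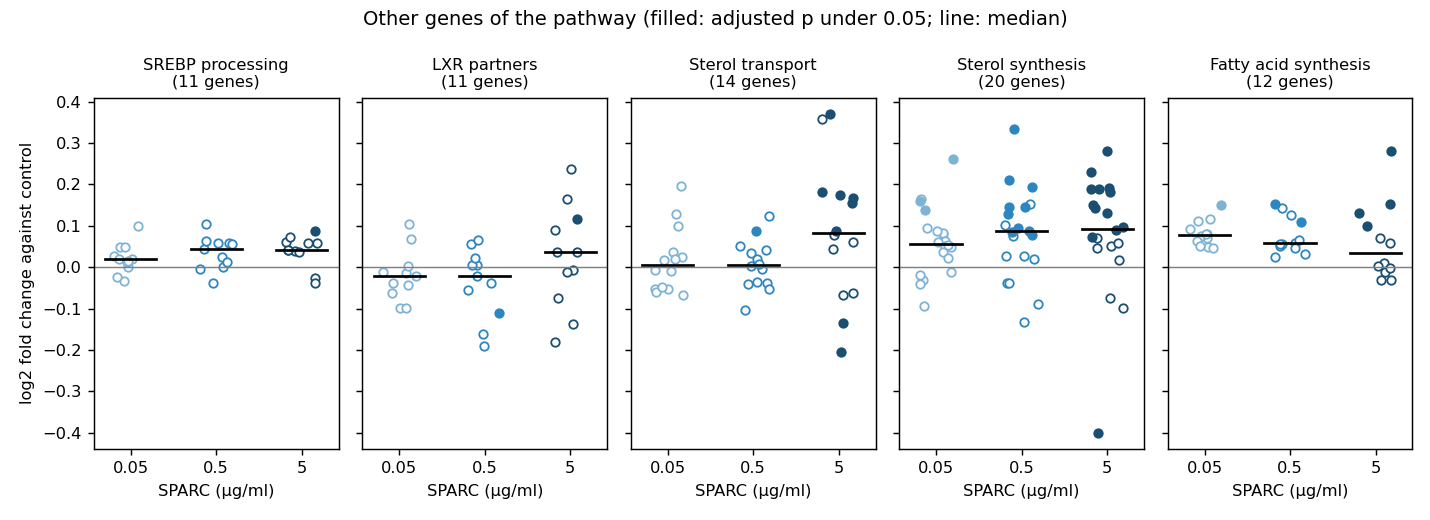
Log2 fold change against control (vertical axis) of the tested genes of the 5 lists at the 3 SPARC doses in µg/ml, with a point for each gene and a line at the list's median. Filled points passed the test, and among the 20 genes of sterol synthesis 3, 10 and 13 were called at 0.05, 0.5 and 5 µg/ml.

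The genes most like each of the 4 changing genes were found by Pearson's r of log2 CPM over the 20 samples, among 11086 genes with a symbol and a mean of at least 5 CPM. These r are descriptions over samples that share doses and libraries. INSIG1 was most like DOCK9 (r = 0.917), POGLUT3 (0.892) and SCD (0.882), the desaturase of the fatty acid list. ABCA1 was most like UBASH3B (0.921), KRT7 (0.913), a simple epithelial keratin, and EZR (0.913), which links membrane to actin. ABCG1 was most like CD24 (0.858) and IER3 (0.833), and SREBF1 was most like LAMA5 (0.9), TKT (0.875) and GPC1 (0.871).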

How the data were processed

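RNA of 20 samples was depleted of ribosomal RNA and sequenced as paired reads, per the labels' protocols. The authors deposited whole-number counts per Ensembl gene. The submitters' processing notes name STAR 2.7.9a, featureCounts 2.0.3 and GRCh38, while the annotation release and strand setting are not given. The authors also deposited tables of log2 fold changes, log2 values per sample and adjusted p-values. One entry was kept for each of 168 identifiers that stood on several entries. Depth was 31955358 to 50112286 counts per sample. Genes passed filterByExpr (minimum count 10). CPM were scaled with TMM factors, with a prior count of 2 for log2 CPM. Tests used edgeR 4.0.16 (quasi-likelihood, robust, all 4 groups in 1 model, R 4.3.3) with Benjamini-Hochberg adjustment over 22938 genes and a threshold of 0.05, and were tested on simulated data. Intervals cover 95%. Alternatives were other scalings, filters, DESeq2 1.42.0, limma-voom (limma 3.58.1), 2-group fits, a replicate block and left-out libraries. The members and lists were chosen with earlier results of these data known. The genes named beside the 8 are, per list and dose, up to 3 called genes with the smallest p, and the 3 most alike by r, and a few of these are not reported here. Epithelial markers, loci that overlap the genes, NR1H2, NR1H3, TM7SF2 and LRP8 were named outside that rule.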

Additional observations from a re-analysis of the deposited data

Results flagged for a closer look

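Among 32 groups of 5 samples (8 genes in 4 groups), 3 held a sample far from the others on the log2 scale, where chance gives about 1 in 20. ABCA1 in control replicate 1 was 6.13 CPM, beside 9.822 to 11.11 CPM in the other 4 control samples. ABCA1 in SPARC 0.5 replicate 5 was 12.89 CPM, beside 9.807 to 10.44 CPM in the other 4. INSIG1 in the same sample, SPARC 0.5 replicate 5, was 149.4 CPM, beside 161.5 to 163.4 CPM in the other 4, and was still above the highest control at 145.1 CPM.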

How the results depend on the processing

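Of 488 log2 fold changes of the 8 genes against control under alternatives, 444 kept their direction and side of the threshold. In 5 a call was lost, in 9 one was gained (4 for SREBF2, 1 for SCAP and 1 for INSIG2 at SPARC 5, and 3 for SREBF1 at SPARC 0.5), in 26 the sign changed without a call in either fit, and in 4 DESeq2 gave no adjusted p. With library sizes as the only scaling, 5 of the 8 genes were called at SPARC 5 and 5 in the trend, SREBF2 and SCAP joining, and 999 genes were higher and 2191 lower at SPARC 5, against 1615 and 1050. At SPARC 0.05, 1 of the 8 was called with DESeq2, 1 with the GC and length correction, and 1 to 2 when 1 sample was left out. Over all genes, DESeq2 called 802 at SPARC 0.5 and 206 at SPARC 0.05, the GC and length correction called 11 at SPARC 0.05, and leaving out 1 sample gave 267 to 608 at SPARC 0.5 and 22 to 82 at SPARC 0.05. Without control replicates 2, 3 and 4, 1412 were called at SPARC 5 and 302 at SPARC 0.5. The GC and length correction and the left-out sets of libraries were chosen after seeing the data, and the cause of these shifts was not tested.

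Values near 0 changed sign as follows. At SPARC 0.05 SREBF2 was -0.0027 and MYLIP -0.0025 with library sizes only, ABCA1 was 0.0088 with limma-voom, and SREBF1 was 0.0073 and MYLIP -0.0029 with the GC and length correction. At SPARC 0.5 that correction gave 0.0133 for SREBF2 and -0.017 for INSIG2. Without control replicates 2, 3 and 4, SREBF1 was 0.0602 and ABCA1 0.2037 at SPARC 0.05, SREBF1 was 0.0179, SREBF2 0.0078 and INSIG2 -0.0136 at SPARC 0.5, and ABCG1 was -0.0455 at SPARC 5. Leaving out 1 sample in turn gave -0.0986 to 0.0214 for MYLIP at SPARC 5, -0.001 to 0.0747 for INSIG2 at SPARC 0.5 and, at SPARC 0.05, -0.0055 to 0.0202 for SREBF2, -0.0575 to 0.0666 for MYLIP and -0.1427 to 0.0439 for ABCA1.

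Same-numbered samples did not deviate together (correlations of -0.0347 to 0.044 over 30 pairs), so the numbers were not taken to pair samples. With the replicate block, 3, 2 and 2 of the 8 genes were called at SPARC 5, SPARC 0.5 and SPARC 0.05, the same genes as without it, and 2750, 612 and 87 of all genes. Depth limits ABCA1, INSIG2 and MYLIP most, at 220 to 723 counts per sample for ABCA1.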
